A study of Mus musculus with 8 samples.

Results

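Plasmacytoid dendritic cells were followed through 10 genes that mark them: Bst2, Tcf4, Ly6d, Cox6a2, Runx2, Pacsin1, Lag3, Ptcra, Cd209d and Lair1. They were listed by name as identity genes of this cell type, with earlier results of these data known. Of the 10, 9 have a row among the 13786 protein-coding genes of the deposited table, and Ptcra, which encodes the alpha chain of the pre-T cell receptor, has none and was not analysed here. The table holds raw counts for CD11c-positive splenocytes of 4 C57BL/6 control mice and 4 B6.SLE123 mice, all female, untreated and 7 weeks old. B6.SLE123 is a lupus-prone strain that carries the Sle1, Sle2 and Sle3 intervals of NZM origin on a C57BL/6 background, so the strains differ by many genes at once. The genotype field of the labels counts upward from mouse to mouse, and the strain was therefore read from the sample titles.

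Plasmacytoid dendritic cells sense nucleic acids in endosomes through Toll-like receptors and answer with large amounts of type I interferon, a cytokine closely tied to lupus. Their identity is set by Tcf4, an E protein that binds E-box sequences and is held in check by Id proteins, above all Id2. They carry less CD11c than conventional dendritic cells, and a preparation selected on CD11c also holds conventional dendritic cells, macrophages and some lymphocytes.

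Total counts were between 25761789 and 32931045 in C57BL/6 mice and between 25563070 and 37367094 in B6.SLE123 mice. The dendritic cell genes Itgax (CD11c) and Flt3 were abundant in both strains, at 1330 and 466 TMM-scaled CPM (counts scaled to a common library size) on average in C57BL/6 mice and 1540 and 613 CPM in B6.SLE123 mice. Both were higher in B6.SLE123 mice, by 0.22 and 0.39 on the log2 scale (adjusted p = 0.00942 and 3.52e-05 in the edgeR fit described below). Marker genes of several cell types differed between the strains too. All 12 red pulp macrophage genes listed fell in the lupus-prone strain, their summed level being 13300 to 17100 CPM in C57BL/6 mice and 1920 to 3800 CPM in B6.SLE123 mice, and so did all 6 marginal zone macrophage genes. Of 10 genes of type 1 conventional dendritic cells, 8 were higher and 1 was lower. Over all genes, 53.4% passed the threshold given below, 26.7% as higher and 26.6% as lower in B6.SLE123 mice. In such bulk samples, fewer cells of a type and less RNA per cell cannot be told apart.

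Of the 9 genes, 1 rose and 4 fell in B6.SLE123 mice. The threshold was an adjusted p below 0.05 in the quasi-likelihood fit of edgeR, which gives every adjusted p here. Pacsin1 was 1.93-fold higher. Cox6a2 was 6.56-fold, Lair1 1.64-fold, Ly6d 1.51-fold and Lag3 1.27-fold lower. The differences of Bst2, Tcf4, Runx2 and Cd209d did not pass. The share past the threshold has to be read against the whole table, where 53.4% of the genes passed. As a share of all genes, 26.7% were higher and 26.6% lower in B6.SLE123 mice. Passing in 5 of 9 genes is thus close to the background. For the same 5 genes the values of the 4 mice did not overlap between the strains, which was so for 48.9% of all genes. Only Cox6a2 also changed more than 2-fold, as did 11.1% of all genes. The median log2 fold change was -0.15 over the 9 genes and -0.002 over all genes.

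**Figure D1:**
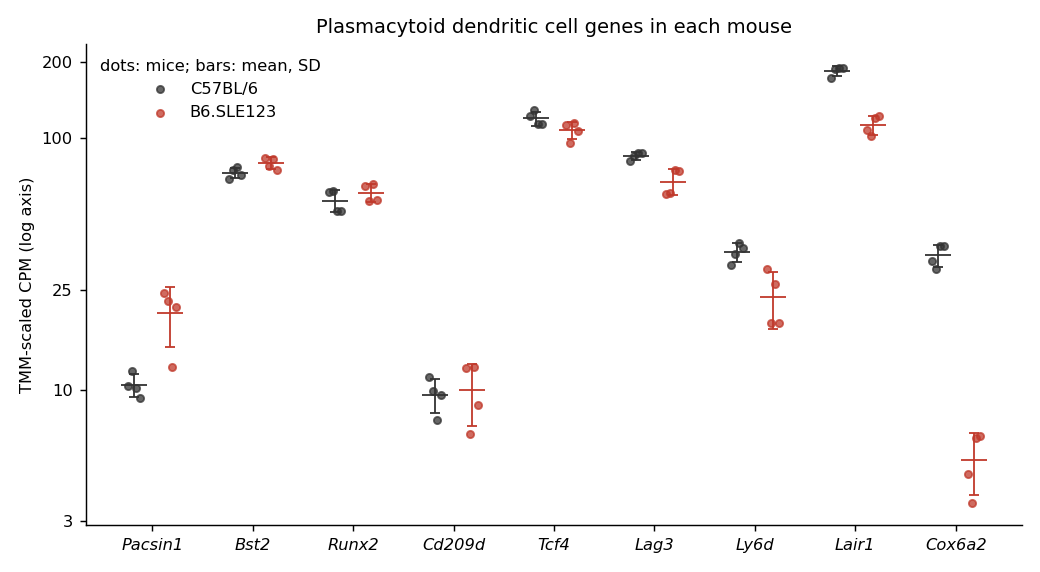
Level of each gene in every mouse, as TMM-scaled CPM on a log axis. Dots are mice, and horizontal bars with whiskers are the mean and SD of 4 mice. Pacsin1 is the only gene here with all B6.SLE123 mice above the C57BL/6 mice, while Lag3, Ly6d, Lair1 and Cox6a2 have all of them below.

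**Figure D2:**
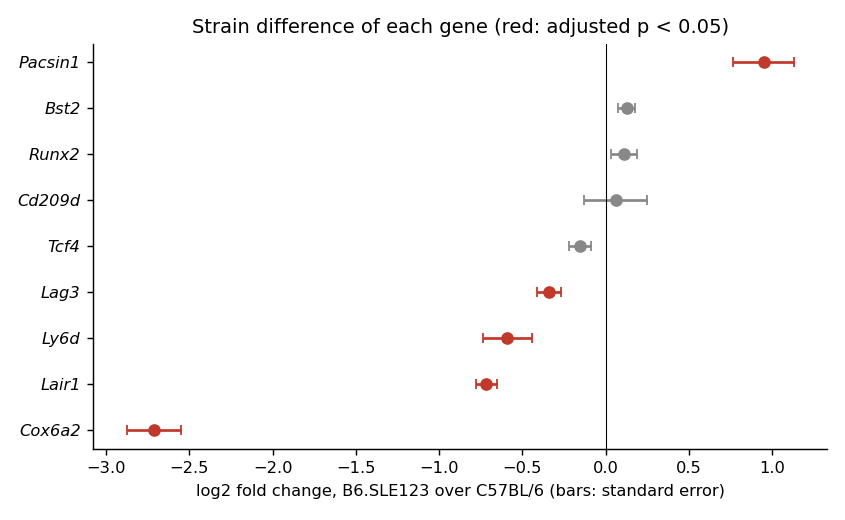
Log2 fold change of B6.SLE123 over C57BL/6 mice for the 9 genes, with the standard error from the quasi-likelihood fit (4 mice against 4). Red marks an adjusted p below 0.05. Values run from -2.72 for Cox6a2 to 0.95 for Pacsin1.

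The promoters of the gene that rose, of a gene that fell, and of Bst2, which is known as an interferon-induced gene, are shown as RefSeq gives them in GRCm38.p6, from 250 bases before to 50 bases after the start of the gene. Each is read 5′ to 3′ on the strand of the gene, and capitals mark E-boxes (CANNTG), RUNX motifs (TGTGGT or its reverse complement ACCACA) and the core of the interferon-stimulated response element (GAAANNGAA or TTCNNTTTC). Pacsin1 lies at chr17:27684989-27685288 on the plus strand, Lair1 at chr7:4063155-4063454 and Bst2 at chr8:71537423-71537722, both on the minus strand.
Pacsin1: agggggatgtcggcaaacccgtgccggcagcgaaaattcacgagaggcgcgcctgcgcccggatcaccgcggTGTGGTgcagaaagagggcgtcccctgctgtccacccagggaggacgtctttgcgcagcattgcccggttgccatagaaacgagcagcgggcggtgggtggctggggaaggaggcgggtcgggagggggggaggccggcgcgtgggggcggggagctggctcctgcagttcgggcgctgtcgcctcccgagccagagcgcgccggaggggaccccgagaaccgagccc
Lair1: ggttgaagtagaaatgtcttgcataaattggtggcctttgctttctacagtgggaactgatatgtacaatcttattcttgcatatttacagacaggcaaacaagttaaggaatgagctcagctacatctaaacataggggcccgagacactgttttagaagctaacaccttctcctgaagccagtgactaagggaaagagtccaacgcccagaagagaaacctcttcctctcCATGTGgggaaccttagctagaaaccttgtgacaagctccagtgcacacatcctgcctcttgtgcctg
Bst2: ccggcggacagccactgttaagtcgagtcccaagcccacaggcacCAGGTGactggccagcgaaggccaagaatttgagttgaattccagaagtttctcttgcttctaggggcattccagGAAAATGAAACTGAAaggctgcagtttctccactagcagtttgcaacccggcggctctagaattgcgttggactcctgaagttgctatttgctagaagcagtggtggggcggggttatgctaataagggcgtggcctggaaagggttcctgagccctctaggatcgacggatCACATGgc

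The Pacsin1 promoter held 0 E-boxes and 1 RUNX motif. An E-box stood in the Lair1 promoter, 18 bases before the start. The Bst2 promoter held 2 E-boxes, one of them the CAGGTG form, and 2 response element cores that overlap each other, at 130 and 124 bases before the start. Among 32544 mouse promoters of 300 bases, 72.3% held an E-box, 20.3% the CAGGTG form on either strand, 16.7% a RUNX motif and 8.53% a response element core. A match describes letters only and does not show binding. The promoters of 6 of the 10 genes were examined. That of Tcf4, on chromosome 18, was left out of the search. Among those not printed, the Runx2 promoter held 2 E-boxes and 3 RUNX motifs, and each E-box overlaps a RUNX motif.

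Tcf4, the defining transcription factor, was at 122, 130, 114 and 114 CPM in the C57BL/6 mice and at 113, 95.6, 115 and 107 CPM in the B6.SLE123 mice. Of the B6.SLE123 mice, 3 were below every C57BL/6 mouse and replicate 3 lay within their range. The log2 fold change was -0.15 (standard error, SE, 0.07, and adjusted p = 0.0694). Tcf4 passed, still at -0.19, when B6.SLE123 replicate 3 was left out (adjusted p = 0.0398 by the same test). It lies on chromosome 18 from 69343356 to 69689079.

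Runx2, a RUNX factor needed for plasmacytoid dendritic cells to leave the bone marrow, was at 61.0, 61.6, 51.5 and 51.4 CPM in C57BL/6 mice. In B6.SLE123 mice it was at 64.3, 56.5, 65.6 and 56.8 CPM, so that only replicates 1 and 3 were above the C57BL/6 range. Its log2 fold change was 0.11 (SE 0.08, adjusted p = 0.251). Runx2 lies on chromosome 17 from 44495987 to 44814797, where the antisense gene Runx2os1 shares 519 exon bases with it. The library kit keeps strand, but the sources used here do not say whether counting used it, so reads of overlapping genes are uncertain.

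Pacsin1, an F-BAR adaptor protein that bends membranes during endocytosis, was at 10.4, 11.9, 10.2 and 9.27 CPM in C57BL/6 mice. It reached 24.3, 22.6, 12.3 and 21.4 CPM in the B6.SLE123 mice. Replicates 1, 2 and 4 of B6.SLE123 were close to each other, and replicate 3 stood only just above the highest C57BL/6 mouse. Pacsin1 rose by 0.95 on the log2 scale (SE 0.18, adjusted p = 0.00122), and 96.2% of all genes had a lower one. Leaving out each mouse in turn gave 0.84 to 1.13. The gene lies on chromosome 17 from 27655509 to 27711482, and its neighbours in the table, Rps10 and Ilrun, had log2 fold changes of -0.28 and 0.12 (adjusted p = 0.0461 and 0.0387). The promoter shown above belongs to a start inside this interval.

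Bst2, or tetherin, holds budding viruses at the cell surface and is the target of a widely used antibody against mouse plasmacytoid dendritic cells. It was at 69.1, 74.5, 77.0 and 71.4 CPM in C57BL/6 mice and at 83.8, 77.6, 82.5 and 75.1 CPM in B6.SLE123 mice, with only replicate 4 of the latter inside the C57BL/6 range. The log2 fold change of Bst2 was 0.13 (SE 0.05, adjusted p = 0.0536). It passed without C57BL/6 replicate 3 (0.15, adjusted p = 0.0391), without B6.SLE123 replicate 4 (0.14, adjusted p = 0.0430) and with upper quartile scaling (0.15, adjusted p = 0.0325). Of 16 interferon response genes in the table, 1 was higher and 6 were lower, and their median log2 fold change was -0.17. The 43.8% that passed lies below the 53.4% of all genes. Bst2 lies on chromosome 8 from 71534255 to 71537456.

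Lag3 is an inhibitory receptor that binds MHC class II, known from activated T cells, NK cells and plasmacytoid dendritic cells. It was at 81.2, 84.9, 87.6 and 87.2 CPM in C57BL/6 mice and fell to 60.3, 60.5, 74.6 and 73.8 CPM in B6.SLE123 mice. The strains did not overlap, and the B6.SLE123 mice formed a lower and a higher pair. Its log2 fold change was -0.34 (SE 0.07, adjusted p = 0.00273). Of 10 T cell genes, 1 was higher and 1 was lower. Of the 8 NK cell genes, 0 passed the threshold, beside 53.4% of all genes, and their median log2 fold change was -0.23. The part of T cells and NK cells in the fall of Lag3 was not tested. Cd4, the neighbour of Lag3 on chromosome 6, which some dendritic cells also express, had a log2 fold change of 0.20 (adjusted p = 0.117).

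Lair1, an inhibitory receptor for collagen that many leukocytes carry, was at 173, 188, 190 and 191 CPM in C57BL/6 mice and at 108, 102, 120 and 122 CPM in B6.SLE123 mice, a gap wider than the spread within either strain. On the log2 scale it fell by 0.72 (SE 0.06, adjusted p = 4.55e-06). Pirb, an inhibitory receptor of myeloid and B cells, also fell, by 0.96 on the log2 scale (adjusted p = 1.12e-06). Lilra6, the nearest gene below Lair1 on chromosome 7, rose by 0.90 (adjusted p = 2.32e-05). Macrophages also express Lair1, and the share of the fall that goes with the fall of the macrophage lists was not tested.

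Ly6d, a small GPI-anchored protein of lymphoid-biased progenitors and B cells, was at 31.4, 34.7, 38.4 and 36.6 CPM in C57BL/6 mice. In B6.SLE123 mice it was at 30.2, 18.5, 26.4 and 18.4 CPM. The highest B6.SLE123 mouse was just below the lowest C57BL/6 mouse, and replicates 2 and 4 were well below the others. Ly6d fell by 0.59 on the log2 scale (SE 0.15, adjusted p = 0.00593). Of 11 B cell genes, 8 were lower and 1 was higher, with a median log2 fold change of -0.61. The share past the threshold was 81.8%, beside 53.4% of all genes. The most abundant B cell genes differed, Cd22 rising by 0.34 (adjusted p = 0.000167) and Ms4a1 at -0.09 (adjusted p = 0.322). Their part in the fall of Ly6d was not tested. The neighbours Lynx1 and Ly6m on chromosome 15 fell too, by 0.42 and 1.16 (adjusted p = 0.0149 and 0.0104 in the same fit). Ly6m was very low, at 0.844 CPM on average in C57BL/6 and 0.387 CPM in B6.SLE123 mice, and its values overlapped.

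Cd209d, a C-type lectin of the DC-SIGN family, was at 11.2, 9.94, 7.59 and 9.53 CPM in C57BL/6 mice and at 12.2, 6.69, 12.3 and 8.70 CPM in B6.SLE123 mice. The strains overlapped fully, and the log2 fold change of 0.06 (SE 0.19, adjusted p = 0.808) was well within its error. Its close relatives on chromosome 8 did not behave alike. Cd209a, known from type 2 conventional dendritic cells and monocyte-derived cells, fell by 0.66, Cd209b of marginal zone macrophages, whose values overlapped between the strains, by 1.16 and Cd209c by 0.90 on the log2 scale (adjusted p = 0.000266, 0.00804 and 0.00942). Cd209e, next to Cd209d, was at -0.05 (adjusted p = 0.872). These genes are related in sequence, so reads may be shared among them.

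Cox6a2 encodes the heart and muscle form of subunit 6A of cytochrome c oxidase, which plasmacytoid dendritic cells are also known to express. Cox6a2 was at 32.6, 30.2, 37.2 and 37.2 CPM in the C57BL/6 mice and at 4.62, 3.55, 6.42 and 6.53 CPM in the B6.SLE123 mice. The log2 fold change of -2.72 (SE 0.16, adjusted p = 5.17e-07) was so low that only 1.31% of all genes had a lower one. Leaving out each mouse in turn gave -2.84 to -2.56. Cox6a1, the form found in most tissues, had a log2 fold change of 0.11 (adjusted p = 0.0596).

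Cox6a2 lies on the minus strand of chromosome 7 from 128205435 to 128206387, and the integrin gene Itgad lies on the plus strand from 128154376 to 128223816. Itgad encodes CD11d, an integrin chain of red pulp macrophages. The genes converge, and in GENCODE M21 an exon of Itgad runs 70 bases into the last exon of Cox6a2. A further Itgad exon is annotated beyond Cox6a2.

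**Figure D3:**
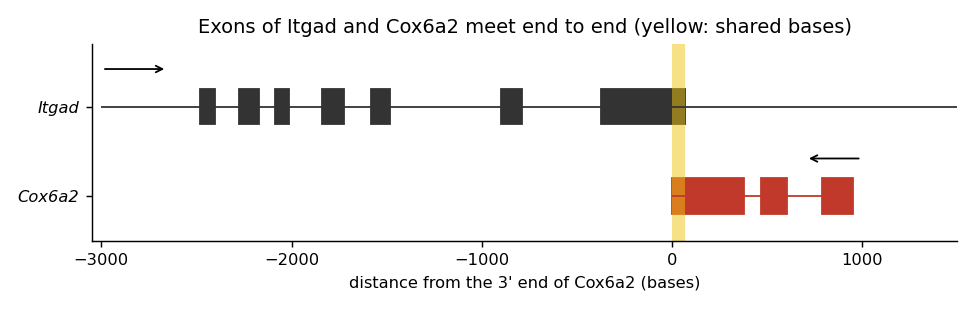
Exons of Itgad and Cox6a2 around the place where they meet, drawn to scale by the distance in bases from the 3′ end of Cox6a2. Arrows give the direction of transcription, and the yellow band marks the 70 shared exon bases.

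Itgad was at 684, 616, 801 and 696 CPM in C57BL/6 mice and at 89.0, 74.2, 146 and 155 CPM in B6.SLE123 mice. Its log2 fold change of -2.60 (SE 0.21, adjusted p = 3.05e-06) was close to that of Cox6a2. In every mouse Cox6a2 had between 4.22 and 5.34 counts for each 100 counts of Itgad. The ratio was 4.91 ± 0.305 (SD, n = 4) in C57BL/6 mice and 4.65 ± 0.429 (SD, n = 4) in the other strain. The log2 difference of -0.08 was within the spread (exact two-sided permutation test, p = 0.371, where 0.0286 is the smallest possible). Within B6.SLE123 mice, the order from low to high was replicate 2, 1, 3 and 4 for both genes.

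A similarly steady ratio was also seen with a few genes that do not overlap Cox6a2. Spic, the transcription factor of red pulp macrophages, lies on chromosome 10 and shares no exon base with Cox6a2. Cox6a2 had between 8.48 and 10.6 counts for each 100 counts of Spic in the 8 mice. The SD of the log2 ratio over the 8 mice was 0.108 for Spic and 0.113 for Itgad. Among the 12 red pulp macrophage genes, only Spic had a smaller SD than Itgad. The others ran from 0.145 for Vcam1 to 0.614 for Adgre1. Of 13528 genes with a count in every mouse, 3 had a smaller SD than Itgad, namely Rims3, Apoe and Spic. The B6.SLE123 order of Cox6a2 was shared by 8 of the 12 red pulp macrophage genes. How many of all genes share this order was not computed, so this count has no background. By the ratios, Cox6a2 ran in parallel with Itgad and with Rims3, Apoe and Spic across the mice. Because Itgad ran in parallel with these genes too, the ratios cannot tell apart the sources of Cox6a2 counts. These ratios were computed after the values were seen. Whether counts of Cox6a2 come from Itgad transcripts or from macrophages was not tested, and without Cox6a2 the identity genes stand at 1 higher and 3 lower of 8.

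**Figure D4:**
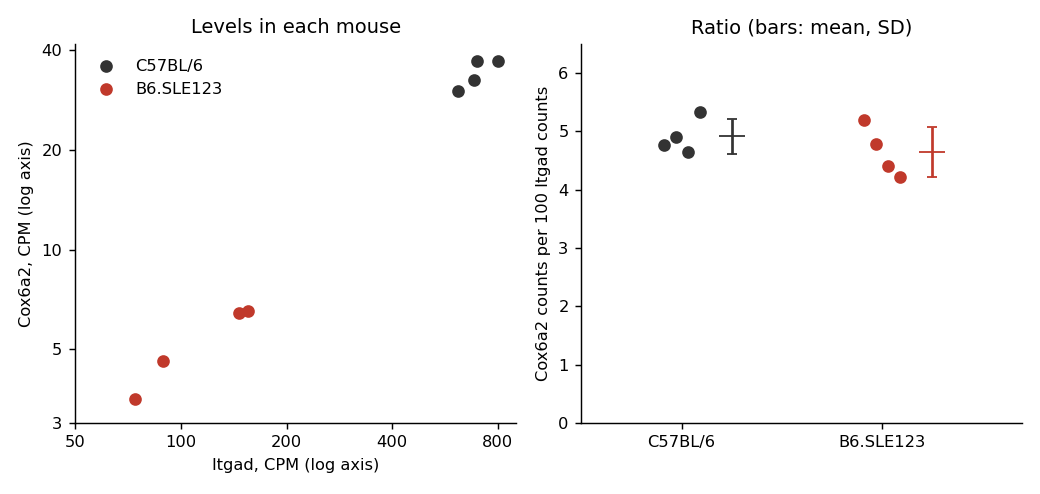
Left, Cox6a2 against Itgad in each of the 8 mice, in CPM on log axes. Right, Cox6a2 counts per 100 Itgad counts in each mouse, with the mean and SD of 4 mice beside them. The levels of the strains are far apart on the left, while the ratios on the right lie between 4.22 and 5.34 and overlap.

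Per kilobase of annotated exon, which allows genes to be compared, Bst2 had the highest level in both strains (80.8 ± 3.84 CPM per kilobase in C57BL/6 and 88.3 ± 4.52 in B6.SLE123 mice, SD, n = 4). In C57BL/6 mice the order below it was Cox6a2, Ly6d, Lag3, Lair1, Cd209d, Runx2, Tcf4 and Pacsin1, and only Cox6a2 (50.4 ± 5.13) and Ly6d (47.4 ± 4.02) overlapped as neighbours. Pacsin1 was lowest at 1.60 ± 0.165 CPM per kilobase. In B6.SLE123 mice Cox6a2 stood sixth at 7.77 ± 2.13, overlapping with Cd209d above and Runx2 below. Pacsin1 stayed last at 3.09 ± 0.826, but now overlapped with Tcf4 at 3.93 ± 0.324. Exon length counts every annotated transcript, so levels of genes with many forms, above all Tcf4, are understated on this scale.

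The mice of B6.SLE123 were less alike for some of these genes than the control mice. The coefficient of variation of Pacsin1 was 26.8% in B6.SLE123 and 10.3% in C57BL/6 mice, that of Ly6d 25.2% and 8.49%, and that of Cox6a2 27.5% and 10.2%. Runx2 went the other way, at 7.93% and 10.1%. A wider spread was not particular to these genes. Over all genes, chi-square per degree of freedom was 10.6 to 18.9 between B6.SLE123 mice and 4.96 to 11.7 between C57BL/6 mice. The spread was not tested. No single B6.SLE123 mouse was high throughout. Replicate 2 had the lowest value of its strain for 5 of the 9 genes and replicate 3 the highest for 4, but replicate 3 had the lowest Pacsin1.

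Siglech, the surface lectin most often used to define plasmacytoid dendritic cells in mice, is not among the 10 genes and gave a separate view. It was at 39.2, 39.2, 30.8 and 33.2 CPM in C57BL/6 mice and at 48.4, 39.0, 61.3 and 45.7 CPM in B6.SLE123 mice, where replicate 2 lay within the control range. A log2 fold change of 0.45 (SE 0.13, adjusted p = 0.0117) went up while Ly6d, Lag3 and Lair1 went down. Siglech lies on chromosome 7 from 55768178 to 55778925. The mouse with the highest Siglech, replicate 3, had the lowest Pacsin1 of its strain but the highest Tcf4, Runx2, Lag3 and Cd209d.

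Relative to Siglech, 6 of the 9 genes did not overlap between the strains, where 40.4% of all other genes did not. Siglech itself rose, by 0.44 on this log2 CPM scale, and dividing by it lowers every gene by that amount, so that the shared direction is largely set by the denominator. The share of all other genes that were lower without overlap was 38.9%. All 6 were lower per unit of Siglech: Cox6a2 by 3.16, Lair1 by 1.15, Ly6d by 1.06, Lag3 by 0.78, Tcf4 by 0.59 and Runx2 by 0.33 on the log2 scale. Pacsin1 was higher by 0.47, with overlap. Against the mean of Siglech, Ccr9, Klk1 and Upb1, which was lower in B6.SLE123 mice by 0.29 and so moves every gene up, 3 of the 9 genes did not overlap. On this scale 30.0% of all other genes did not, 22.5% as higher in B6.SLE123 mice. The 3 genes were Cox6a2 (-2.43), Pacsin1 (1.19) and Runx2, which was then higher (0.40). The fall of this 4-gene mean came mainly from Klk1, a low gene at 4.05 CPM in C57BL/6 and 1.41 CPM in B6.SLE123 mice. In the edgeR fit Klk1 had a log2 fold change of -1.51, Upb1 of -0.32, Ccr9 of 0.26 and Siglech of 0.45. The direction of Runx2 thus depended on the denominator.

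Of 24 further genes known from plasmacytoid dendritic cells, all were in the table, and 13 passed the threshold, 5 higher and 8 lower. This share of 54.2% is near the 53.4% of all genes, and the median log2 fold change was -0.08. Among the genes that rose were Siglech, Cd7 (0.29, adjusted p = 0.00686), an immunoglobulin family receptor, and Ptprs (0.27, adjusted p = 0.00521), a receptor phosphatase known to restrain these cells. Havcr1, a receptor for phosphatidylserine, rose by 0.67 (adjusted p = 0.0213), although its values overlapped between the strains.

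Among the falls, Ctsl, a lysosomal protease, fell by 1.82 on the log2 scale, the kallikrein Klk1 by 1.51 and Blnk, the linker of B cell receptor signalling, by 1.22 (adjusted p = 5.72e-07, 0.000202 and 3.67e-05). Ugcg, which makes glucosylceramide, fell by 0.88 (adjusted p = 6.14e-06), and the abundant endosomal nuclease Pld4 by 0.15 (790 ± 10.2 CPM against 710 ± 47.0 CPM, SD, n = 4, adjusted p = 0.0237). The homing receptor Ccr9 was at 0.26 with an adjusted p of 0.146. Several of these genes are not particular to the cell type: Ctsl is also a macrophage gene and Blnk a B cell gene, and Ctsl overlaps an antisense gene and a pseudogene. Cd7 and Ccr9 also share exon bases with other genes.

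**Figure D5:**
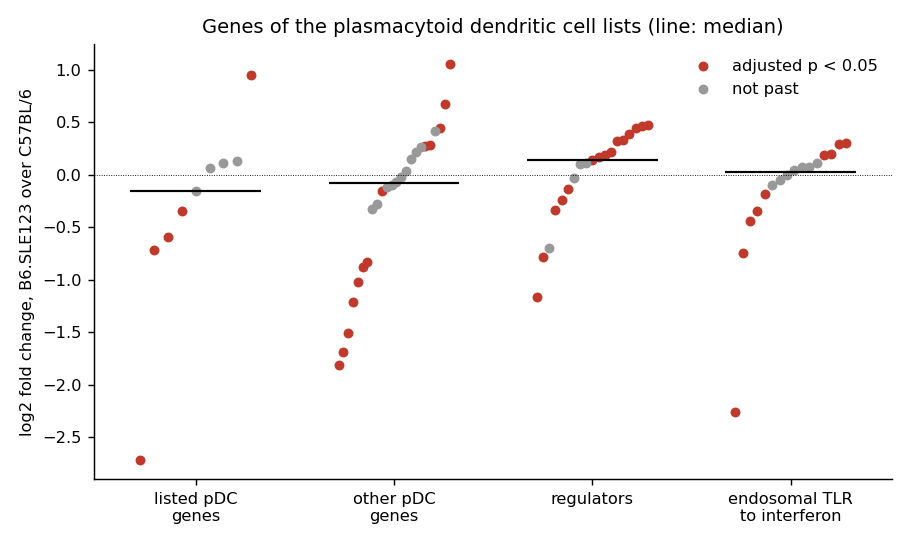
Log2 fold changes of B6.SLE123 over C57BL/6 mice for the 9 genes, 24 further genes of plasmacytoid dendritic cells, 19 regulators and 16 genes from endosomal Toll-like receptors to interferon. Each dot is a gene, red at an adjusted p below 0.05, and lines are medians (-0.15, -0.08, 0.14 and 0.02). Every list holds both rises and falls.

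Of 20 regulators of dendritic cell development listed, 19 were in the table and 15 passed, 10 higher and 5 lower, with a median log2 fold change of 0.14. This is a share of 78.9%, beside 53.4% of all genes, which were split almost evenly by direction. Irf8, which drives type 1 conventional dendritic cells and is expressed in plasmacytoid ones, rose from 708 ± 68.6 to 987 ± 171 CPM (SD, n = 4), a log2 fold change of 0.48 with an adjusted p of 0.00514, and its values overlapped. Id2, the antagonist of Tcf4 that is high in conventional dendritic cells, rose by 0.46 (adjusted p = 0.00145) without overlap, at 341 to 407 CPM in C57BL/6 and 456 to 625 CPM in B6.SLE123 mice. Flt3, the growth factor receptor of dendritic cells, and Stat3, which acts below it, rose by 0.39 and 0.45 (adjusted p = 3.52e-05 and 1.22e-05). Ikzf1, a zinc finger factor of lymphoid and dendritic cell development, and the corepressor Cbfa2t3, were abundant and rose by 0.19 and 0.22 (adjusted p = 0.00402 and 0.000862).

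Spib, an ETS factor that works with Tcf4, fell by 0.34 (adjusted p = 0.00333), Id3 by 0.78 (adjusted p = 0.00175) and Zeb2, which favours plasmacytoid over type 1 conventional dendritic cells, by 1.17 (adjusted p = 6.08e-06). Zeb2 is also expressed by macrophages and overlaps the antisense gene Zeb2os. The other E proteins, Tcf3 and Tcf12, had log2 fold changes of -0.03 and 0.10 (adjusted p = 0.610 and 0.218). Of the RUNX group, Runx3 rose by 0.38 and the shared partner Cbfb by 0.33 (adjusted p = 0.000140 and 4.70e-05), while Runx1 fell by 0.24 (adjusted p = 0.00180). Runx1 overlaps an antisense gene.

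Of 20 genes from the endosomal Toll-like receptors to interferon, 16 were in the table, 4 higher and 5 lower, with a median log2 fold change of 0.02. The 56.2% that passed is again near the 53.4% of all genes. The type I interferon genes Ifnb1, Ifna1, Ifna2 and Ifna4 had no row and were not analysed here. The receptors went opposite ways. Tlr7, which senses single-stranded RNA, was at 147, 157, 156 and 150 CPM in C57BL/6 mice and at 82.0, 82.8, 93.1 and 106 CPM in B6.SLE123 mice (log2 fold change -0.75, adjusted p = 1.36e-05). Tlr9, which senses DNA, was at 171, 162, 156 and 162 CPM against 183, 179, 183 and 201 CPM (log2 fold change 0.20, adjusted p = 0.00449). Neither gene overlapped between the strains. Both are levels of the whole CD11c-positive preparation, and in which cells they changed was not tested.

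Unc93b1, which carries both receptors to endosomes, fell by 0.34 (adjusted p = 0.000405), and the transcription factor Irf7 by 0.44 (adjusted p = 0.0121) with overlapping values. Pld3, a nuclease that limits Tlr9 and is abundant in macrophages, fell by 2.26 (adjusted p = 2.60e-06). Traf3 and the adaptor subunit gene Ap3b1 rose by 0.30 each (adjusted p = 0.000430 and 0.000327), and the transcription factor Irf5 by 0.19 (adjusted p = 0.00414). The chaperone gene Hsp90b1 and the kinase gene Irak1 were at -0.10 and -0.002 (adjusted p = 0.367 and 0.977). Among 22 relatives, partners and neighbours of the identity genes, 19 were in the table, and 4 rose and 6 fell, or 52.6% in all. Pacsin2, the widely expressed relative of Pacsin1, rose by 0.39 (adjusted p = 5.20e-06), and Ly6a, a relative of Ly6d, by 0.75 (adjusted p = 0.00447). The abundant Ly6e was at -0.11 (adjusted p = 0.241).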

How the data were processed

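RNA of CD11c-positive splenocytes was sequenced from a stranded mRNA library of each mouse. The authors used cutadapt for trimming, STAR for alignment (mm10) and featureCounts for counting, whose versions and use of strand are not given in the sources used here. The deposited table holds raw counts of 13786 protein-coding genes, each with a strain median count of at least 5 in one of the strains. It also holds the authors' DESeq2 comparison (mean normalized signal, log2 fold change, its error and score, p-value and adjusted p-value, and fold change as a ratio), which was not used.

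After TMM scaling, the strains were compared in edgeR 4.0.16 (quasi-likelihood, R 4.3.3) without a filter, with Benjamini-Hochberg adjustment over all genes. Depth was 25563070 to 37367094 counts per mouse. No replicate pair agreed within sampling noise (chi-square per degree of freedom 4.96 to 18.9). Labels do not say more of how samples were taken, so p-values measure the spread between these samples. Log2 CPM for overlap used a prior count of 2. The fit was tested on simulated data. Symbols turned into dates were restored for 21 genes. Coordinates were those of the table, of which 13663 match GENCODE M21.

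The 10 genes and all lists were chosen with earlier results of these data known. Named were the 10 genes, and from each of the 4 lists on the cell type the 4 most abundant, the 3 largest rises and falls past the threshold with at least 100 counts on average in the higher strain, and set defining or overlapping genes. The 2 most abundant genes of each cell type list were in the rule too, but only those beside a result are given. Nearest genes on either side came from position. Itgax, Tcf3, Tcf12, Spic, Rims3 and Apoe were added after values were seen. Alternatives were relative log expression and upper quartile factors, DESeq2 1.42.0, limma-voom (limma 3.58.1), a replicate block, a minimum of 10 counts per sample, a 2-fold requirement and leaving out each mouse.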

Additional observations from a re-analysis of the deposited data

Results flagged for a closer look

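Of 52 groups of 4 mice examined (9 genes and 17 list means in each strain), 3 held a mouse far from the other 3, where chance gives about 1 in 20 groups. Lair1 was at 7.43 log2 CPM in C57BL/6 replicate 1, against a strain median of 7.56. The mean over the 9 plasmacytoid dendritic cell genes was 5.57 log2 CPM in C57BL/6 replicate 2, against a median of 5.51. The mean of the neutrophil genes was -0.57 log2 CPM in B6.SLE123 replicate 3, against a median of 0.85.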

How the results depend on the processing

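Of 126 values for single identity genes under alternative settings, 118 changed neither sign nor call, and of 238 counts 219 stayed within 1.5 times. Pacsin1, Cox6a2, Lair1, Ly6d and Lag3 passed in all 14 alternative fits. The 2-fold requirement left 1 of the 5 identity genes (0 higher, 1 lower), 6 of 13 further genes of the cell type (1 higher, 5 lower), and 1 regulator, 1 gene from Toll-like receptors to interferon and 1 relative (0 higher and 1 lower in each). These lists had 9, 24, 19, 16 and 19 genes in the table, and 11.1% of all genes met the requirement. With upper quartile factors 2 identity genes were higher, since Bst2 passed. Leaving out each mouse gave 5 to 6 identity genes, 1 to 2 of them higher. Tcf4 also passed with at least 10 counts in every sample (adjusted p = 0.0498, by edgeR). The direction of Cd209d reversed without C57BL/6 replicate 3 (-0.039), B6.SLE123 replicate 1 (-0.055) and B6.SLE123 replicate 3 (-0.057), and over all fits without a mouse it ran from -0.057 to 0.209. With the mean of 4 genes in place of Siglech, 3 genes did not overlap. The cause of these changes was not tested. Leaving out Cox6a2, an alternative chosen after seeing the data, gave 4 genes past the threshold.

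With the replicate block, 5 identity genes passed as before (1 higher, 4 lower), and 14 further genes of the cell type passed against 13. Deviations of mice with the same number correlated by 0.06, 0.23, 0.07 and 0.14, and not every mouse correlated best with its own number, so the numbers were not taken as pairs. Genes without a row, Ptcra among them, could not be examined.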
